A study of Mus musculus with 2 samples.

Results

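The heterotrimeric G protein subunits described here are Gnas, Gnao1 and Gng2, and their 8 RNA immunoprecipitation (RIP) peaks were selected on the deposited peak list itself. A peak was taken as a member when it shared at least 1 base with an annotated exon of one of these genes on the strand opposite the strand listed for the peak, whatever its adjusted p. The rule gave 2 peaks for Gnas, 5 for Gnao1 and 1 for Gng2, which is 8 of the 2296 listed peaks and 8 of the 657 that lay over exons of protein-coding genes on assembled chromosomes. The opposite strand was used because 726 of the 736 chromosomal peaks with exons on 1 strand only had those exons on the strand opposite the peak. The genes were chosen because the list holds peaks over them, so their reads and ratios are descriptions and carry no test.

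RNA that co-purified with Mov10, an RNA helicase, was sequenced from brains of C57bl/6 wild-type pups at postnatal day 2. The Mov10 IP came from lysate of 28 pooled pups that was first passed over an unrelated antibody and was not UV cross-linked. It was set against the Input, which is total RNA of postnatal day 2 brain. There was 1 library of each and no replicate, so the values compare these 2 libraries, and more Mov10-bound RNA cannot be told apart from any other difference between them. Whole brain RNA holds neurons, glia and other cells together, so a gene's reads cannot be assigned to a cell type, and fewer cells of a type cannot be told apart from less RNA per cell.

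A heterotrimeric G protein is made of an alpha, a beta and a gamma subunit and carries a signal from a membrane receptor to enzymes and channels inside the cell. The alpha subunit binds GDP at rest and GTP when activated, and the beta and gamma subunits act as 1 unit held to the membrane by a lipid on gamma. Gnas encodes the alpha subunit that stimulates adenylyl cyclase and is an imprinted locus whose alternative first exons also give the XLαs and Nesp transcripts. Gnao1 encodes alpha o, an abundant alpha subunit of neurons, whose transcripts end in alternative coding exons. Gng2 encodes a gamma subunit.

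Coding stretches and an upstream stretch show where the peaks lay. The Gnas stretch is shown because it is the exonic body of the Gnas peak with the highest ratio, and its capitals mark the 15 bases that encode the G3 motif, a part of the GTP-binding pocket (mm10, GENCODE M21 transcript, plus strand).
Gnas-208 exon 9, chr2:174345383-174345525: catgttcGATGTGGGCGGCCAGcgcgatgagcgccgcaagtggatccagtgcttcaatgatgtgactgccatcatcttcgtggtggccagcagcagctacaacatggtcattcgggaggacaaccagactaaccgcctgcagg
The Gnao1 stretches are shown in pairs because the gene has alternative exons 7 and 8. In each pair the first line is the Gnao1-201 sequence under a peak, the second is the aligned sequence of the alternative exon in Gnao1-207, and capitals mark bases that differ between them.
Gnao1-201 exon 7, chr8:93963401-93963537: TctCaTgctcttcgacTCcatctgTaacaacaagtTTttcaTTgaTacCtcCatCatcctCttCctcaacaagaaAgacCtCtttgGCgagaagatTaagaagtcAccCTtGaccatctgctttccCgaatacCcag
Gnao1-207 exon 7, chr8:93953992-93954128: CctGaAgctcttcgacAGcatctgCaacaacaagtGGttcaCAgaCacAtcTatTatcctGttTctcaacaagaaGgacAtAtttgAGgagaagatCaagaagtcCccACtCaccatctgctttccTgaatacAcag
Gnao1-201 exon 8, chr8:93966868-93967000: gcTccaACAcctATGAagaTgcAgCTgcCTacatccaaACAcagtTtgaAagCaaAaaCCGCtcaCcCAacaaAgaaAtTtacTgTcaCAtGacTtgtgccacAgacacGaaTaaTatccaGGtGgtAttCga
Gnao1-207 exon 8, chr8:93956065-93956197: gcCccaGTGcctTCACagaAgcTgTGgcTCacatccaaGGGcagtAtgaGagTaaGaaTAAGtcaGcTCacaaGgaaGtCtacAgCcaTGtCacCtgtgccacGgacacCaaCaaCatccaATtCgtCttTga
The upstream stretch comes from the RefSeq promoter table (GRCm38.p6) and is the part of the Gnao1 5′ peak that lies before the start of Gnao1-201. Its capitals lie within the first exon of Gnao1-202, a retained-intron transcript without a coding sequence, and its lower-case bases lie in no annotated Gnao1 exon.
Gnao1 upstream, chr8:93810601-93810837: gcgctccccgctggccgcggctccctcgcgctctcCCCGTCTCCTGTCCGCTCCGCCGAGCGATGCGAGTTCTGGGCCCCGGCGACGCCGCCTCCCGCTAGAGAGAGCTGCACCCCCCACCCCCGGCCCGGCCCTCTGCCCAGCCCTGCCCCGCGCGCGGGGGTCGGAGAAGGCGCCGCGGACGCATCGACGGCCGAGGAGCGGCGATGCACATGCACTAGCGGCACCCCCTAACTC

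All 8 peaks held more reads in the Mov10 IP than in the Input after each library was scaled to its aligned reads. The enrichment ratio, which is the share of aligned reads in the IP over that in the Input, ran between 6.55 for Gng2 and 46.2 for the coding peak of Gnas. Its 95% interval is an exact conditional binomial interval that covers counting error only, and it lay above 1 for 8 of 8 peaks. The same count was not made over the other listed peaks. With a pseudocount of 0.5 on both counts, the median ratio was 22.0 over the 8 member peaks and 14.5 over the 657 protein-coding exon peaks. The lower quartile of the 657 was 9.07. Of the 8 member peaks, 5 belong to Gnao1 and 2 to Gnas, so they are not replicates. Summed over the peaks of each gene, without a pseudocount, the ratio was 23.4 for Gnas, 21.1 for Gnao1 and 6.55 for Gng2. The authors' adjusted p was at most 0.05 for 8 of 8 member peaks, against 43.4% of all listed peaks and 89.8% of the protein-coding exon peaks. Since these peaks were chosen from the same contrast, nothing is read from that count or from the count of intervals above 1.

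**Figure D1:**
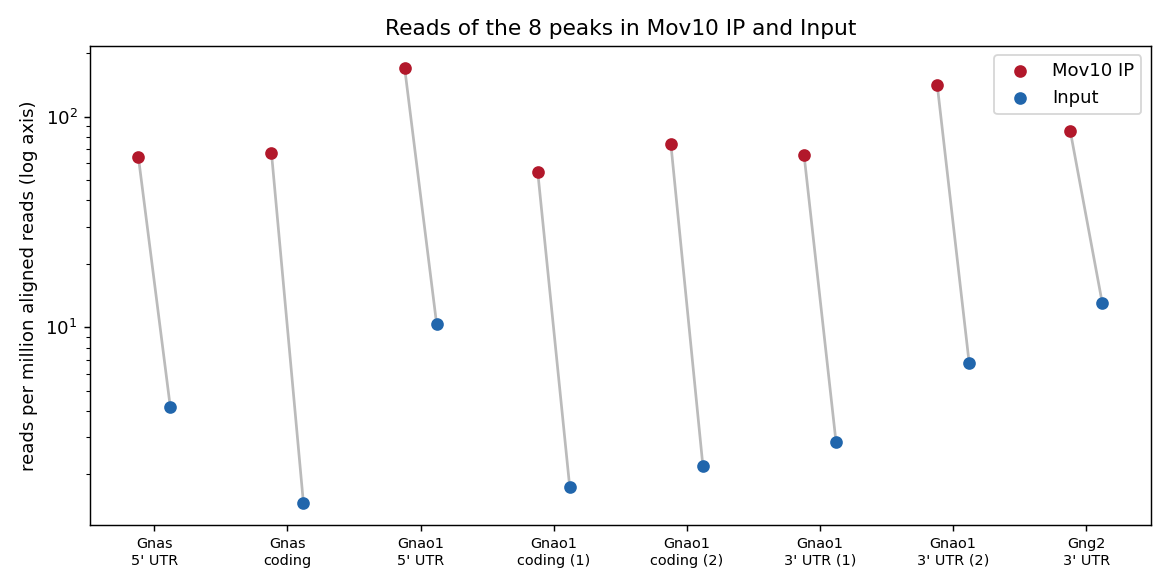
Reads per 1000000 aligned reads (log axis) in the Mov10 IP (red, left) and the Input (blue, right) for each peak of Gnas, Gnao1 and Gng2, joined by a grey line. Each point is 1 library. The IP points lie between 54.5 and 171 and the Input points between 1.46 and 13.0, with no overlap. Over the 657 protein-coding exon peaks the medians were 24.7 in the IP and 1.74 in the Input. Peaks were listed on this same contrast, so nothing is read from the gap.

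Gnas (ENSMUSG00000027523.19, chr2:174284320-174346744, plus strand) had 1 peak at the 5′ end of its alpha s transcript and 1 in exons 8 and 9 of the 12 exons of Gnas-208. The 5′ peak, chr2:174330001-174330225, held 4624 reads in the Mov10 IP and 249 in the Input, which is 64.7 and 4.18 reads per 1000000 aligned reads (RPM). Its ratio was 15.5 (95% interval 13.6 to 17.7). This peak covered 137 bases of the 5′ UTR in exon 1 of Gnas-208, a principal alpha s transcript, and began 88 bases before its annotated start. It also covered 220 bases of the longer first exon of Gnas-207, and all 225 of its bases lay in the 5′ UTR of Gnas-202.

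The coding peak of Gnas, chr2:174345301-174345525, held 4817 reads in the Mov10 IP and 87 in the Input, or 67.3 and 1.46 RPM. Its ratio of 46.2 (37.3 to 57.7) was the 45th highest of 657, and its interval did not overlap that of the 5′ peak of the same gene. Per 1000 bases of whole peak, the IP reads differed by 1.04-fold between the Gnas peaks and the Input reads by 2.86-fold. Per 1000 exonic bases of Gnas-202, the coding peak had 33451 IP reads and 604 Input reads and the 5′ peak 20551 IP reads and 1107 Input reads, so on that scale both libraries differed between the peaks. The peak covered 143 bases of exon 9 and 1 base of exon 8 of Gnas-208, the 81 other bases being the intron between them.

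The Gnas peaks differed in which transcripts could have given them. The 5′ peak lay over exons of 4 of the 24 annotated Gnas transcripts, and the coding peak over exons of 15 of them, in coding sequence in 7. Exons 8 and 9 are shared by the alpha s, XLαs and Nesp transcripts, so the coding peak cannot be assigned to a single Gnas product. The predicted gene Gm20721 lies on the minus strand, which is the strand listed for the peak, with 144 exonic bases under it. The library strand is not stated. Of 736 chromosomal peaks with exons on 1 strand only, 726 had them opposite the peak, which here is the strand of Gnas. Whether any reads of this peak came from Gm20721 was not tested. The other 9 exons of Gnas-208 held no listed peak.

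Gnao1 (ENSMUSG00000031748.16, chr8:93809966-93969388, plus strand) had the most reads of the 3 genes, with 36281 in the Mov10 IP and 1431 in the Input summed over its 5 peaks. The summed ratio was 21.1 (20.0 to 22.3), and its interval overlapped that of Gnas, whose summed ratio was 23.4 (21.0 to 26.2). Its 5′ peak, chr8:93810601-93811200, held 12246 IP reads and 623 Input reads, with a ratio of 16.4 (15.1 to 17.8). That was the 11th largest IP count of the 657 protein-coding exon peaks, over one of the longest peaks, 600 bases. It reached 237 bases upstream of the start that GENCODE gives for Gnao1-201 and RefSeq gives for the gene, and ended inside the 5′ UTR, 136 bases before the start codon.

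The coding peaks of Gnao1 had the highest ratios of the gene. The exon 7 peak, chr8:93963401-93963600, held 3897 IP reads and 104 Input reads, a ratio of 31.2 (25.7 to 38.3). The exon 8 peak, chr8:93966801-93967000, held 5281 IP reads and 131 Input reads, a ratio of 33.6 (28.3 to 40.3). Of its 200 bases, 133 lay in exon 8 of Gnao1-201, and all 200 lay in the retained-intron transcript Gnao1-212. The intervals of these coding peaks overlapped each other and lay above the interval of the 5′ peak.

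The remaining Gnao1 peaks lay in the 3′ UTR of the last exon, exon 9 of Gnao1-201. The nearer, chr8:93968201-93968400, held 4703 IP reads and 170 Input reads, with a ratio of 23.1 (19.8 to 27.0). The farther, chr8:93968601-93969000, held 10154 IP reads and 403 Input reads, with a ratio of 21.0 (19.0 to 23.3). These intervals overlapped each other, lay above that of the 5′ peak and lay below that of the exon 8 peak. Over the 5 Gnao1 peaks the IP reads per 1000 bases spanned 19485 to 26405, and the Input reads per 1000 bases spanned 520 to 1038. Per 1000 exonic bases of Gnao1-201, the IP reads spanned 23515 to 39707 and the Input reads 759 to 1716.

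**Figure D2:**
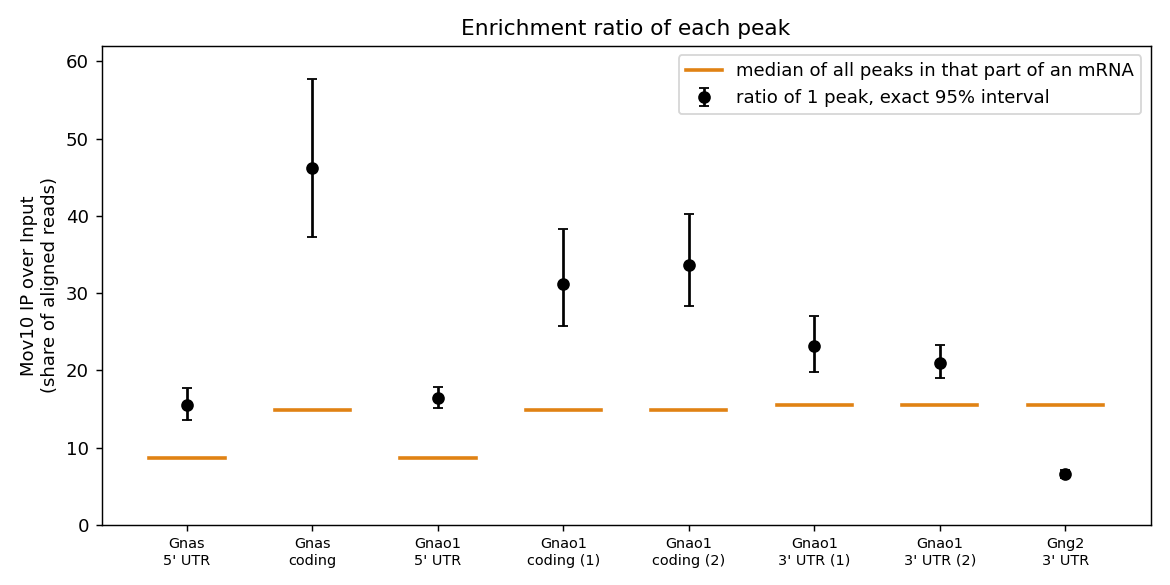
Enrichment ratio of each peak (Mov10 IP over Input, share of aligned reads) with its exact 95% interval, and, as orange lines, the median of all protein-coding exon peaks in the same part of an mRNA. The Gnas coding peak stands at 46.2 and Gng2 at 6.55, the only one of the 8 peaks below its orange line.

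The longest Gnao1 coding sequences end in one of 2 pairs of alternative coding exons, and the peaks lay on 1 pair. Exons 1, 7, 8 and 9 of the 9 exons of Gnao1-201 held a peak. The 2 exons particular to Gnao1-207, which span 4780 bases with its 3′ UTR, shared 0 bases with any listed peak on either strand. The exons 7 differ at 28 of the 137 bases under the peak, with no identical run over 14 bases. The exons 8 differ at 46 of 133 bases, with no identical run over 8 bases. Both printed Gnao1 coding stretches hold codons of the guanine nucleotide pocket: the G4 motif in exon 7, where 11 of 12 bases are the same in the alternative exon, and the G5 motif in exon 8, where 10 of 12 are the same. No listed peak does not show that the Gnao1-207 exons had no reads, since the list on this strand of chromosome 8 went down only to 16455 IP reads per 1000 bases.

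**Figure D3:**
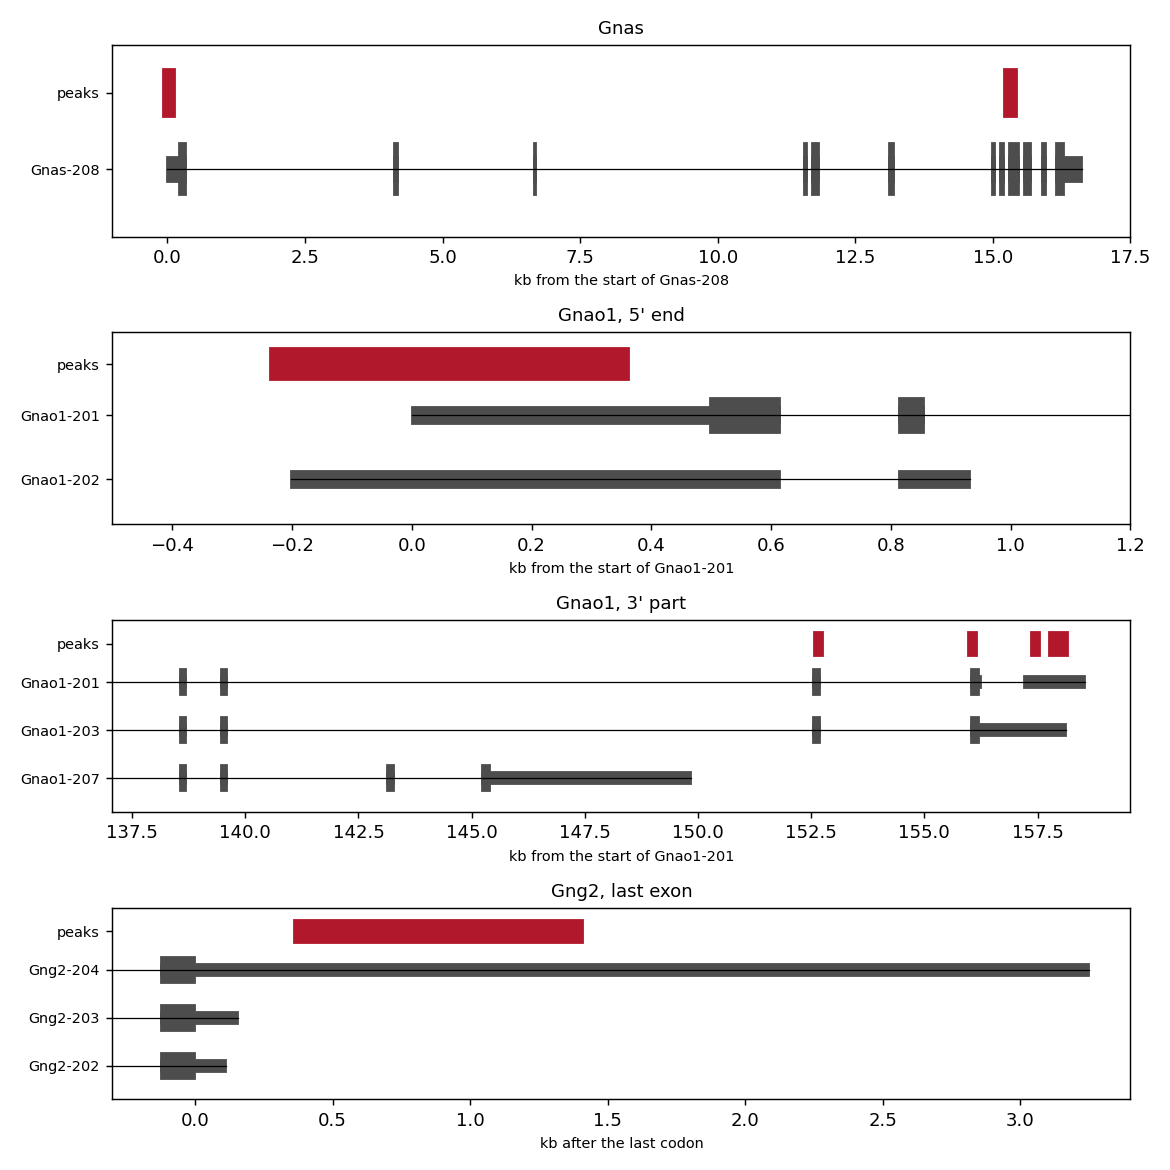
Peaks (red) above GENCODE transcripts (grey, tall boxes coding, low boxes untranslated or noncoding), by distance in kb from the start of Gnas-208, the start of Gnao1-201 and the last codon of Gng2. The 5′ peak of Gnao1 starts 237 bases before Gnao1-201, the exons particular to Gnao1-207 have no peak over them, and the Gng2 peak lies beyond the ends of the shorter Gng2 transcripts.

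Gng2 (ENSMUSG00000043004.13, chr14:19872559-19977627, minus strand) had 1 peak, chr14:19874401-19875450, the second longest of the 657. It held 6094 reads in the Mov10 IP and 776 in the Input, or 85.2 and 13.0 RPM. The ratio of 6.55 (6.07 to 7.06) was the lowest of the 8 peaks, below every interval of Gnas and Gnao1, and ranked 571 of 657. Its IP count ranked 47 of 657 and its Input count 19 of 657.

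All 1050 bases of the Gng2 peak lay in the 3′ UTR of Gng2-204, between 360 and 1409 bases after the last codon. Of the 6 annotated Gng2 transcripts, only Gng2-204 holds this sequence, with 3251 bases after the last codon. The other 5 end between 17 and 155 bases after it, at least 205 bases before the near edge of the peak. The Gng2 reads in this list therefore came from sequence annotated only in the long 3′ UTR form, and the shorter forms were not measured by a listed peak.

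The members can be set beside the other peaks in the same part of an mRNA. The median ratio, with the pseudocount of 0.5, was 8.60 over 70 peaks in 5′ UTRs, 14.8 over 378 in coding sequence and 15.5 over 206 in 3′ UTRs. Both 5′ UTR members, at 15.5 and 16.4, stood above the upper quartile of 14.9 for their part. The 3 coding members, at 31.2, 33.6 and 46.2, stood above the upper quartile of 22.7. The Gnao1 3′ UTR peaks stood within the quartiles of 9.96 and 24.3, and Gng2 below the lower one. These quartiles, and the ranks of ratios, pool chromosome strands with unlike lowest listed IP levels, given below. How far a member's place depends on its strand was not tested. The order of 5′ UTR below coding sequence held within both Gnas and Gnao1 and over all peaks.

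**Figure D4:**
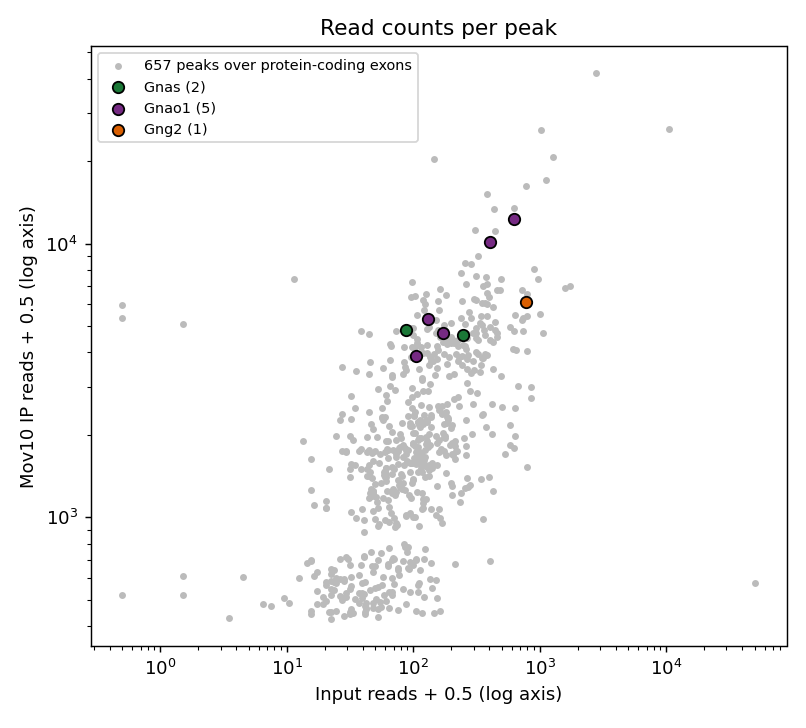
Mov10 IP reads against Input reads (both + 0.5, log axes) for the 657 peaks over protein-coding exons (grey), with the peaks of Gnas, Gnao1 and Gng2 in colour. The Gnao1 peak with 12246 IP reads lies near the top, and the Gng2 peak lies to the right, with 776 Input reads.

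The listed level of each gene was bound to the chromosome strand it lies on. The authors called peaks on each strand separately with a bin size set by the software, and the lengths fit bins of 225 bases on the minus strand of chromosome 2, 200 on the minus strand of chromosome 8 and 210 on the plus strand of chromosome 14. Listed peaks on the plus strand of chromosome 14, where Gng2 is, had 4210 to 7157 IP reads per 1000 bases. Those on the minus strands of chromosomes 8 and 2, where Gnao1 and Gnas are, had 16455 to 27415 and 18111 to 24671. The Gng2 peak, at 5804, was below every listed peak of both other strands, and no listed peak of its own strand reached theirs.

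**Figure D5:**
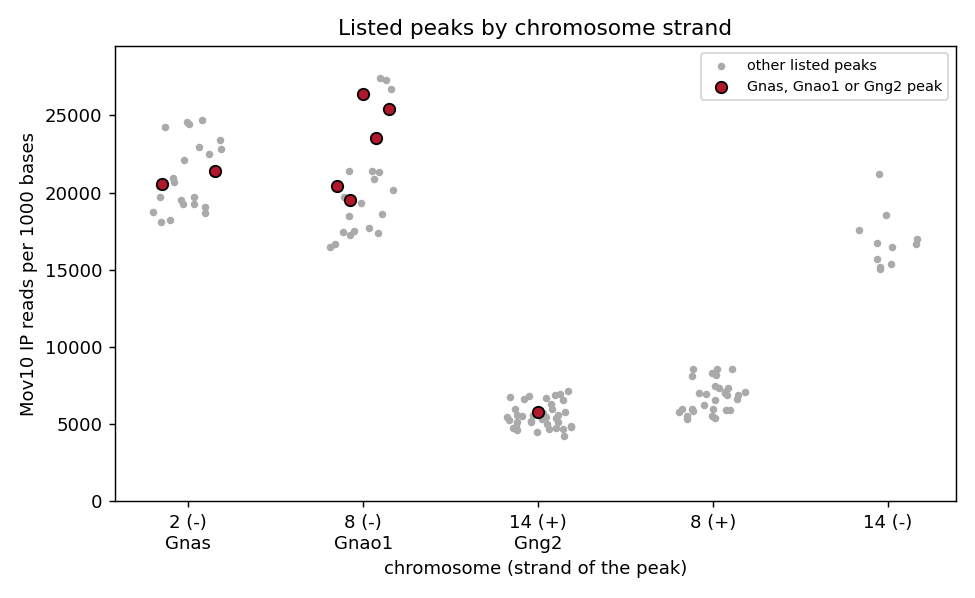
Mov10 IP reads per 1000 bases of every listed peak on 5 chromosome strands, with the member peaks in red and all others in grey (horizontal spread within a column has no meaning). The minus strand of chromosome 2 and that of chromosome 8 hold no peak under 16455, while the plus strand of chromosome 14 holds none above 7157.

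The authors' empirical false discovery rate (eFDR) also followed the strand. It was 0.478 for both Gnas peaks, a value shared by 23 of the 24 listed peaks of that strand, and 0.364 for the 5 Gnao1 peaks, shared by 22 of 24. It was 0.0263 for Gng2, shared by 38 of 38. Hence 1 of 8 member peaks had an eFDR of at most 0.05, against 23.4% of all listed peaks and 37.7% of the protein-coding exon peaks, and that 1 was the peak with the lowest ratio. The adjusted p was at most 0.05 for every listed peak of these 3 strands and for 0 of the 30 on the plus strand of chromosome 8.

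Base composition set the 5′ peak of Gnas apart from the other members. Its exonic part was 81.3% G or C, the 2nd highest of 67 exonic stretches in 5′ UTRs with at least 50 bases, whose median was 67.2%. The Gnao1 5′ UTR stretch, at 67.2%, was at that median. The coding stretches of Gnao1 were at 43.8% and 43.6% and that of Gnas at 57.6%, against a median of 55.1% over 369 coding stretches. The 3′ UTR stretches of Gnao1 were at 35.5% and 48.2% and that of Gng2 at 45.0%, against 49.9% over 204. The upstream Gnao1 stretch printed above was 76.8% G or C, and 2.82% of 32851 RefSeq promoters exceeded Gnao1 over the 250 bases before the start. The GC box GGGCGG, searched on both strands, was not in the 300 bases of the Gnao1 promoter and was in 35.7% of promoters.

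The exonic bases under each peak, in a single transcript, were searched against annotated transcripts for near copies in other genes. The only near copy was the antisense Gm20721 named above. Bases outside that transcript's exons and unannotated copies were not searched, and shorter runs were not counted. Whether reads were shared with other places was therefore not tested. At 95% identity over at least 100 bases, 0 other genes matched the Gnao1, Gng2 and Gnas 5′ stretches. Only the best match to another gene was kept for each stretch. For Gnao1 exon 7 it was Gnai2, an inhibitory alpha subunit, at 78.0% over 127 bases. For the Gnas coding stretch it was Gm20721, so how close a paralog came to that stretch is not given.

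Mov10 is known to act with Argonaute proteins in microRNA-mediated regulation, so the 3′ UTR members were searched for seed matches of 9 microRNAs that are common in brain. The searched letters were the reverse complements of bases 2 to 8, namely CTACCTC for let-7a, ACCAAAG for miR-9, CTCAGGG for miR-125b, CACTGTG for miR-128, TACTTGA for miR-26a, TGGTGCT for miR-29a, TGTTTAC for miR-30a, CACCAGC for miR-138 and AAGCACA for miR-218, on the transcript strand. Of 27 searches over 3 peaks, 2 found a match. Over the 27 searches, the share of mouse 3′ UTR windows of the same length with a match ran between 1.35% and 15.1%. Nothing is read from the count of matches. The microRNAs concerned are given with the seed in capitals, and the sites with the match in capitals.
mmu-miR-218-5p: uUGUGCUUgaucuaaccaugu
Gnao1 3′ UTR site, chr8:93968601-93968629, plus strand: tgcgtagaaaAAGCACAgctctggcaggg
mmu-miR-29a-3p: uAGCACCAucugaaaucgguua
Gng2 3′ UTR site, chr14:19875040-19875068, minus strand: cgtgttgtgacTGGTGCTtccatatctgt
The miR-218 match is also found in 4.40% of 67303 windows of 400 bases from mouse 3′ UTRs, and the miR-29a match in 10.3% of 20444 windows of 1050 bases. A match is only a description of the letters in the window.

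Among 56 other listed genes of the G protein pathway, 1 had a listed peak over an exon, which is near the 2.04% of all protein-coding genes. Of 33 subunit genes, 3 had one, namely Gnas and Gnao1 among 16 alpha subunits, none among 5 beta subunits and Gng2 among 12 gamma subunits. The same 2.04% stands beside this count, and the 3 genes were themselves chosen for having a peak. None of 10 chaperones and modulators, 9 adenylyl cyclases, 6 protein kinase A subunits, 4 phospholipase C beta genes, 4 G protein-gated potassium channels and 7 receptor kinases and arrestins had one. Of 16 regulators of G protein signalling, which speed GTP hydrolysis by alpha subunits, 1 did. It was Rgs3, with 1981 reads in the Mov10 IP and 31 in the Input over coding sequence, a ratio of 53.3 (37.4 to 78.6).

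The absence of a listed peak says little for the other subunit genes. For 6 of the 33, the strand on which their reads would be listed held no peak at all. The other 27 include Gnas, Gnao1 and Gng2 themselves. Over these 27, the lowest listed level on that strand was between 2125 and 92450 IP reads per 1000 bases, with a median of 11685. It was above the level of the Gng2 peak for 23, Gnas and Gnao1 among them. Gnai2, for example, lies where the lowest listed peak had 92450.

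Just outside the rule were Gnal and Gnaq. A peak in an intron of Gnal, the olfactory relative of Gnas, had 1600 reads in the Mov10 IP and 48 in the Input, 5448 bases from the nearest Gnal exon and over an exon of the nested gene Chmp1b. A peak within Gnaq, whose alpha subunit activates phospholipase C beta, had 1347 IP reads and 262 Input reads. That peak lay 31140 bases from the nearest Gnaq exon and was over the processed pseudogene E030024N20Rik. It was listed on the plus strand, which is also that of Gnaq, so it missed the strand condition too. Just inside the rule were the coding peak of Gnas, with 64.0% of its bases in exons of the gene, and the exon 7 peak of Gnao1, with 68.5%.

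Other mRNAs had nearly the same pair of counts. By distance in log2 IP and Input reads (each + 0.5), the peaks nearest to the coding peak of Gnas were those of Metap2, Psmd8 and Sfr1, at distances of 0.14 to 0.20. Metap2, which removes the first methionine of new proteins, had 4925 IP reads and 96 Input reads. Nearest to the 5′ peak of Gnao1 were Map2, Cdk5r2 and Ptma, at 0.14 to 0.52. Map2, which binds microtubules in dendrites, had 13487 IP reads and 626 Input reads. Nearest to Gng2 were Cox7a2l, Tubb3 and Ndn, at 0.11 to 0.19. Tubb3, the neuronal beta tubulin, had 5459 IP reads and 799 Input reads. Map2 and Tubb3 are markers of neurons, but the nearest genes were picked by read counts alone, so no cell type is read from them. Each likeness rests on 2 libraries.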

How the data were processed

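RNA from the Mov10 IP and the Input, 1 library each, was sequenced by the authors. Reads were aligned with TopHat2 2.1.1 to unmasked mm10 after base calling with bcl2fastq 2.17.1.14, per the labels and the study's methods. RIPSeeker was run on each strand, and reads with several hits were assigned to single places. The deposited list gives, for each peak, the authors' read counts in both libraries, not scaled to depth, with an adjusted p-value and an eFDR from the same contrast.

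Reads were divided by the aligned totals that the study gives, 71522027 for the Mov10 IP and 59620379 for the Input. Uniquely aligned totals, 57005129 and 29124706, were an alternative. Exact conditional binomial intervals at 95% cover counting error only, since reads without molecular identifiers are not independent molecules. With 1 library per group no test was made.

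Exons came from GENCODE M21 (GRCm38, the same assembly as mm10). RefSeq exons were not used here, so the rule was applied with GENCODE alone. A peak was given to the part of an mRNA that holds most of its exonic bases in the basic coding transcript with the largest overlap. RefSeq promoters and microRNAs (GRCm38.p6) held 3 of 3 member genes and 9 microRNAs searched. Copies were sought with BLAST+ 2.17.0. Intervals were computed with scipy 1.17.1 and overlaps with intervaltree 3.1.0, in Python 3.11.15 with pandas 2.3.3 and numpy 2.4.6, and figures were drawn in matplotlib 3.10.9. The interval was tested on simulated data.

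The members and gene lists were chosen with earlier results of these data known, and the microRNAs after the peaks were seen. Besides the members, named genes were those of the lists with a peak and, for each member, the 3 with the nearest counts. Gnal, Gnaq, Gnai2, Gm20721, Chmp1b and E030024N20Rik were named after their values were seen.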

Additional observations from a re-analysis of the deposited data

How the results depend on the processing

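Of 31 alternatives, 21 left the value within its interval or count range and 10 moved it. Some could not move it. GENCODE exons only is the main setting under another name, and filters that keep every peak of a gene repeat its value. Scaling to uniquely aligned reads lowered the ratios to 14.4 for Gnas, 13.0 for Gnao1 and 4.01 for Gng2. Scaling to the reads within all listed peaks gave 11.1, 10.03 and 3.11 in that order. Only the library totals differ in these settings, so the order of the genes is fixed. With only the peak with the most IP reads, Gnas stood at 46.2 and Gnao1 at 16.4. An eFDR of at most 0.05 left 1 member peak in place of 8, that of Gng2, and no value for Gnas or Gnao1. Counting any part of a gene on either strand gave 5 subunit genes with a peak in place of 3. The alternative with RefSeq exons only was not run. No paired analysis was possible because there is 1 library per group. With 1 library per group, the intervals leave out the spread between preparations, and levels below the lowest listed peak of a strand were not measured.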
